A study of Mus musculus with 12 samples.

Results

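The wound-activated keratins Krt6a, Krt6b, Krt16 and Krt17 were followed in mouse ear tissue before and after a punch injury. Every probe whose annotated symbol was one of these 4 genes was taken, which gave 6 of the 45281 probes on the array, for 4 of 14277 named genes: ILMN_1228295 and ILMN_2738369 for Krt6a, ILMN_2594736 and ILMN_1235713 for Krt6b, ILMN_1229813 for Krt16 and ILMN_2661214 for Krt17. Total RNA of whole ear tissue from LG/J and SM/J, a pair of inbred strains, was measured on Illumina bead arrays. LG/J is known for closing ear holes well and SM/J for closing them poorly. The 4 groups of 3 arrays were LG/J ear from around the punch 7 days after injury, LG/J normal ear, SM/J ear from around the punch 7 days after injury, and SM/J normal ear. The labels name no treatment besides the punch and give no age, and they do not say whether arrays of a group came from separate animals, so p-values measure the spread between these samples.

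Keratins form the intermediate filaments of epithelial cells as pairs of a type II and a type I chain. In resting skin between the hairs, basal keratinocytes make Krt5 with Krt14, and suprabasal cells make Krt1 with Krt10. Krt6a and Krt6b are type II chains and Krt16 and Krt17 are type I chains. All 4 are made in parts of the hair follicle and nail, and injury switches them on in the epidermis at the wound edge, which is why they serve as markers of activated keratinocytes. In the RefSeq gene table (GRCm38.p6) Krt6b, Krt6a and Krt5 lie side by side among coding genes, as do Krt14, Krt16, Krt17 and Krt42. Krt6a and Krt6b are close relatives in sequence, so how far each probe reports only its named gene is uncertain.

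Signals were given a background correction, put on the log2 scale and normalized between arrays, and these log2 values are the levels below. On this scale the background limit of the arrays lay between 5.75 and 5.83, and 52.4% to 55% of probes were above it. Median deposited intensity ran from 95.9 to 118 across arrays. All 6 keratin probes were among the 33960 probes bright enough to be tested. In a principal component analysis, component 1 (50.7% of the variance) separated the strains, except that LG/J uninjured replicate 4 had a score of 6.28 where LG/J uninjured replicates 1 and 3 had -66.0 and -61.9. Many results that rest on this array are also given without it. The 14 measured keratinocyte markers, of 18 listed, were above the limit on every array, as were all 7 fibroblast markers. All 4 measured cartilage markers, of 5 listed, were above it too, and 5 or 6 of 6 skeletal muscle markers were, so the samples held epidermis together with other ear tissues.

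**Figure D1:**
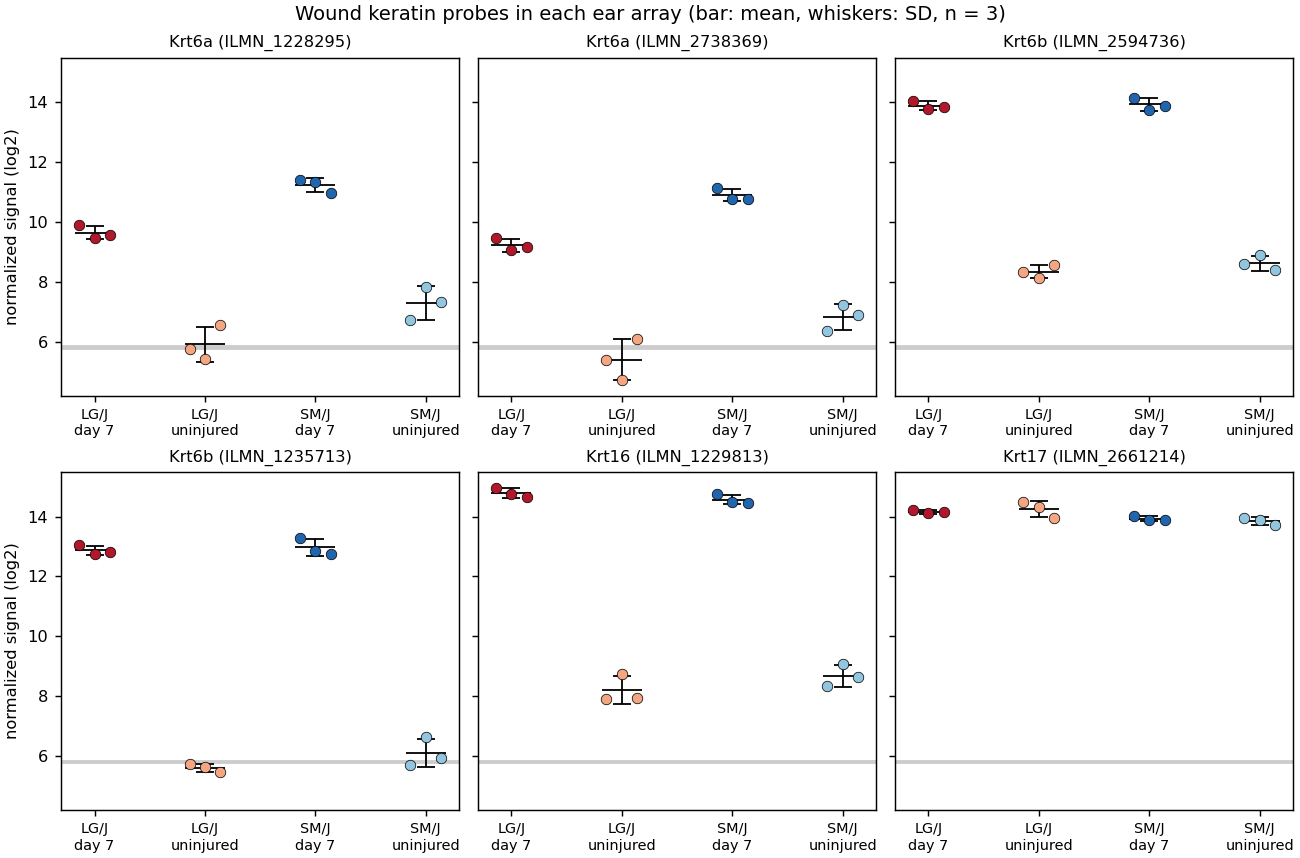
Normalized log2 signal of the 6 wound keratin probes in each array, by group. Points are arrays, the bar and whiskers are the mean and SD (n = 3), and the grey band is the background limit of 5.75 to 5.83. Krt6a, Krt6b and Krt16 are higher on every day 7 array than on any uninjured array of the same strain, and Krt17 stays between 13.72 and 14.49 throughout.

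The comparison of day 7 with uninjured ear asks how each wound keratin changed around the punch. Krt6a, Krt6b and Krt16 rose strongly in both strains, and Krt17 was already bright in uninjured ear and did not pass the test in either strain. In LG/J 5 of 6 probes were called higher (limma, Benjamini-Hochberg adjusted p under 0.05) and none lower, where 4.81% of all tested probes were called higher. Over all probes 53.2% of the calls in LG/J were higher, a share that was 29.6% with median scaling and 67.5% with 75th percentile scaling, and in SM/J 55.1%, against 28.2% and 71.2% under these scalings. In SM/J again 5 of 6 were called higher, against 5.17% of all tested probes. The median change of the 6 probes was 4.70 in LG/J and 4.69 in SM/J on the log2 scale, beside -0.01 and -0.02 over all tested probes.

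Krt6a, a type II chain of the hair follicle and of wounded epidermis, had log2 values of 9.89, 9.46 and 9.56 on its probe ILMN_1228295 in LG/J at day 7, against 5.76, 5.40 and 6.56 in uninjured LG/J replicates 1, 3 and 4. In SM/J the values of this probe were 11.42, 11.32 and 10.96 at day 7, against 6.71, 7.83 and 7.33 in uninjured replicates 2, 4 and 5. The groups did not overlap in either strain, and in uninjured LG/J only replicate 4 was above the background limit. The rise was 3.73 ± 0.30 in LG/J (SE, n = 3 per group; limma adjusted p = 4.38e-06), a 13.3-fold difference, and 3.94 ± 0.30 in SM/J (limma adjusted p = 1.95e-06), a 15.4-fold difference. Since uninjured LG/J lay so near background, the size of its rise depended on the background correction, and without correction it was 3.03 in LG/J and 3.61 in SM/J.

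The other Krt6a probe, ILMN_2738369, gave log2 values of 9.47, 9.06 and 9.15 in LG/J at day 7, against 5.37, 4.71 and 6.08 in uninjured LG/J. Its values in SM/J were 11.14, 10.78 and 10.78 at day 7, against 6.35, 7.23 and 6.89 in uninjured SM/J. The order of the 4 groups was as on the first probe, and uninjured LG/J replicate 4 was again the highest of its group. The rise was 3.84 ± 0.30 in LG/J (limma adjusted p = 3.12e-06, n = 3 per group) and 4.08 ± 0.30 in SM/J (limma adjusted p = 1.28e-06). Of the uninjured LG/J arrays only replicate 4 was above the background limit on this probe, and without background correction the rise was 2.91 in LG/J and 3.65 in SM/J. After each probe was centred on its own mean, the 2 Krt6a probes differed by a root mean square of 0.13 over the 12 arrays.

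Krt6b, the other type II chain, had log2 values of 14.05, 13.79 and 13.85 on its brighter probe ILMN_2594736 in LG/J at day 7, against 8.31, 8.14 and 8.57 in uninjured LG/J. In SM/J this probe had 14.16, 13.76 and 13.87 at day 7, against 8.58, 8.89 and 8.40 in uninjured SM/J. All 12 arrays were above the background limit, the day 7 arrays stood far above the uninjured ones, and each group spanned less than 0.5 on this scale. The rise was 5.55 ± 0.17 in LG/J, or 47.0-fold (limma adjusted p = 3.13e-10, n = 3 per group), and 5.31 ± 0.17 in SM/J, or 39.6-fold (limma adjusted p = 5.67e-10).

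The dimmer Krt6b probe ILMN_1235713 had log2 values of 13.04, 12.74 and 12.81 in LG/J at day 7, against 5.71, 5.63 and 5.45 in uninjured LG/J, where all 3 arrays were below the background limit. Its values in SM/J were 13.30, 12.86 and 12.76 at day 7, against 5.70, 6.61 and 5.93 in uninjured SM/J, where 2 of 3 arrays were above the limit. Uninjured ear was at background or just over it on this probe, and day 7 ear was among the bright signals of the array. On the background-corrected scale the LG/J level at day 7 was at least 135-fold higher, taken against the background limit of the uninjured arrays (fitted change 7.27 ± 0.21, limma adjusted p = 3.04e-10, n = 3 per group). In SM/J the change was 6.89 ± 0.21 on that scale (limma adjusted p = 5.67e-10). The size depended on the correction: without it the change was 6.38 in LG/J and 6.19 in SM/J, and in the authors' deposited normalized table it was 6.35 and 6.17, so 135-fold is no bound outside the corrected scale. The centred values of the 2 Krt6b probes differed by a root mean square of 0.85 over the arrays, more than those of the 2 Krt6a probes, with the larger rise on the probe that was at background before injury.

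Krt16, the type I partner of Krt6 chains in activated epidermis, reached log2 values of 14.97, 14.74 and 14.65 in LG/J at day 7, against 7.91, 8.72 and 7.91 in uninjured LG/J. In SM/J it reached 14.76, 14.50 and 14.45 at day 7, against 8.33, 9.07 and 8.62 in uninjured SM/J. In the deposited intensities, before any normalization here, this was 27584 to 36708 in LG/J at day 7, against 281 to 467 in uninjured LG/J. The groups were far apart in both strains, and all 12 arrays were above background. Krt16 rose by 6.61 ± 0.23 in LG/J, or 97.5-fold (limma adjusted p = 1.3e-09, n = 3 per group, rank 5 among tested probes), and by 5.90 ± 0.23 in SM/J, or 59.6-fold (limma adjusted p = 4.92e-09, rank 8).

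Krt17, a type I chain of hair follicles and other skin appendages as well as of wounded epidermis, had log2 values of 14.23, 14.11 and 14.14 in LG/J at day 7, against 14.49, 14.30 and 13.95 in uninjured LG/J. In SM/J the values were 14.02, 13.87 and 13.89 at day 7, against 13.96, 13.90 and 13.72 in uninjured SM/J. Day 7 and uninjured arrays overlapped in both strains. The difference was -0.09 ± 0.15 in LG/J (limma adjusted p = 0.763, n = 3 per group, 95% interval -0.40 to 0.22) and 0.07 ± 0.15 in SM/J (limma adjusted p = 0.838, 95% interval -0.25 to 0.38). These intervals do not reach the rises of the other 3 genes, which began at 3.09 at the lowest end of any interval. The sign of the Krt17 difference turned under some settings, to 0.17 in LG/J with arrays scaled to their 75th percentile.

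**Figure D2:**
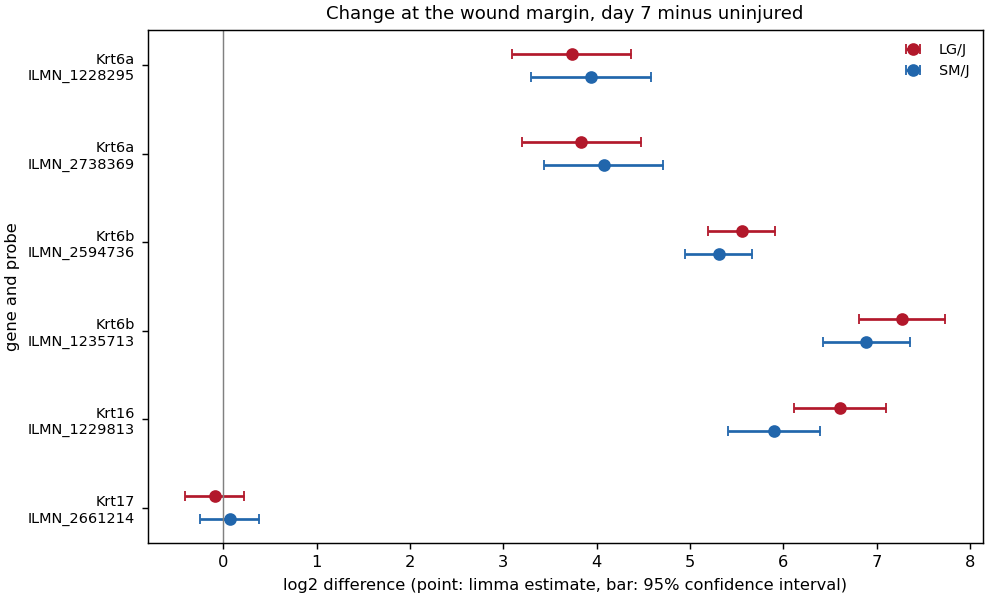
Change of each wound keratin probe around the punch, day 7 minus uninjured, on the log2 scale in LG/J (red) and SM/J (blue). Points are limma estimates and bars are 95% confidence intervals. Intervals of Krt6a, Krt6b and Krt16 lie above 3, and those of Krt17 span 0.

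Leaving out LG/J uninjured replicate 4 gave LG/J changes of 4.06 and 4.18 for the Krt6a probes, 5.69 and 7.21 for the Krt6b probes, 6.49 for Krt16 and -0.24 for Krt17 (limma adjusted p = 0.289 for Krt17). In all, 5 of 6 probes had day 7 and uninjured arrays that did not overlap in each strain, where 13.2% of tested probes in LG/J and 14.9% in SM/J had higher day 7 arrays without overlap. With 3 arrays in each group the smallest p of an exact permutation test is 0.10, so the tests rest on the spread pooled by limma over the 4 groups. In whole tissue, a change in the number of cells of a type and a change in RNA per cell cannot be told apart. The summed normalized intensity of the 14 measured keratinocyte markers was 88413.6 to 89634.5 in LG/J at day 7, against 104891 to 118067 in uninjured LG/J, and 93483.4 to 99272.2 in SM/J at day 7, against 104169 to 107993 in uninjured SM/J. This sum was thus lower at day 7, without overlap, while Krt6a, Krt6b and Krt16 were higher. A sum is carried by its brightest genes, and Krt15 was among them. Krt15 had log2 values of 12.92 to 13.29 in LG/J at day 7, against 14.46 to 14.52 in uninjured LG/J. In SM/J it had 13.21 to 13.43 at day 7, against 14.25 to 14.38 in uninjured ear. The lower sum therefore does not show a fall of the 14 markers as a whole. The means of the log2 values of all 14 were 10.83 to 10.93 in LG/J at day 7, against 11.05 to 11.46 in uninjured LG/J. In SM/J these means overlapped, at 11.28 to 11.35 at day 7, against 11.33 to 11.42 in uninjured ear. By gene, 1 of these 14 markers rose and 3 fell in LG/J, and 2 rose and 1 fell in SM/J (2 and 2 without LG/J uninjured replicate 4). Of all named genes, 7.43% were called higher and 5.92% lower in LG/J, and 7.1% higher and 6.29% lower in SM/J.

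Some markers of other cell types also moved with injury. The 10 measured hair follicle and sebaceous gland markers, of 12 listed, summed to 31010.3 to 33331.2 in LG/J at day 7, against 39398.2 to 45571.1 in uninjured LG/J, and to 35400 to 43092.1 in SM/J at day 7, against 46428.2 to 49347.1 in uninjured SM/J. By gene, 1 of these 10 rose and 1 fell in LG/J, and none rose and 1 fell in SM/J. Without LG/J uninjured replicate 4, 1 rose and none fell in LG/J, and 1 rose and 1 fell in SM/J. The means of the log2 values of these 10 overlapped in LG/J, at 7.22 to 7.53 at day 7, against 7.09 to 7.94 in uninjured ear. In SM/J they did not, at 7.03 to 7.10 at day 7, against 7.18 to 7.32 in uninjured ear. Only 5 to 9 of the 10 were above the background limit on an array, so these sums rest on the brighter ones. The 7 measured macrophage markers, of 8 listed, summed to 17636.3 to 24445.5 in LG/J at day 7, against 6144.63 to 13127.7 in uninjured LG/J, and to 19601.8 to 22758.6 in SM/J at day 7, against 11311.9 to 13316.3 in uninjured SM/J. By gene, 6 of these 7 rose in LG/J and 2 in SM/J, and none fell. Without LG/J uninjured replicate 4, 6 rose in LG/J and 7 in SM/J. The 6 measured neutrophil markers, of 9 listed, had overlapping sums in both strains, of 2869.15 to 3403.29 in LG/J at day 7, against 2215.74 to 4349.4 in uninjured LG/J, and 1506.04 to 2326.62 in SM/J at day 7, against 1259.38 to 1690.1 in uninjured SM/J. The means of their log2 values did not overlap, at 7.73 to 7.95 in LG/J at day 7, against 6.89 to 7.52 in uninjured LG/J, and 7.35 to 7.67 in SM/J at day 7, against 6.31 to 6.71 in uninjured SM/J. By gene, 3 neutrophil markers rose and none fell in LG/J (2 and 1 without LG/J uninjured replicate 4), and 4 rose and 1 fell in SM/J.

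Markers of deeper tissue were lower at day 7 in part. The 6 skeletal muscle markers summed to 28214.8 to 36105.3 in LG/J at day 7, against 47232.6 to 69124.3 in uninjured LG/J, and to 24125.8 to 26101.8 in SM/J at day 7, against 27198.8 to 60446.5 in uninjured SM/J. None rose in either strain, and 4 fell in LG/J and none in SM/J (3 and 1 without LG/J uninjured replicate 4). The 4 measured cartilage markers, of 5 listed, summed to 3558.59 to 4749.07 in LG/J at day 7, against 3741.6 to 6706.48 in uninjured LG/J, and to 1709.62 to 1962.74 in SM/J at day 7, against 3283.2 to 3645.25 in uninjured SM/J. By gene, 2 cartilage markers fell and none rose in LG/J, and 3 fell and 1 rose in SM/J. The part of these shifts in the keratin values was not tested.

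The strain comparison asks whether LG/J and SM/J differ in these keratins before injury and at day 7. Krt6a was lower in LG/J than in SM/J at both times on both of its probes. The difference was 3.02-fold and 3.19-fold at day 7. In uninjured ear 2 of 3 LG/J arrays were below the background limit on both probes, and the size of the difference depended on the background correction. Sequence differences between the strains under the probes were not examined here, so their part in a strain difference of signal was not tested. None of the Krt6b, Krt16 and Krt17 probes was called. At day 7, 2 of 6 probes were called, both lower in LG/J, where 12% of all tested probes were called lower and 25.2% were called either way. In uninjured ear 2 of 6 were called, both lower in LG/J, where 10.6% of tested probes were called lower and 21.6% either way. These shares are high for the array as a whole, so a strain difference by itself was common.

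At day 7 Krt6a differed by -1.60 ± 0.30 on ILMN_1228295 (LG/J minus SM/J, limma adjusted p = 0.00245, n = 3 per strain) and by -1.68 ± 0.30 on ILMN_2738369 (limma adjusted p = 0.00171). The highest LG/J array on the first probe, 9.89, was below the lowest SM/J array, 10.96. In uninjured ear the differences were -1.38 ± 0.30 (limma adjusted p = 0.00625) and -1.43 ± 0.30 (limma adjusted p = 0.00499), and again no LG/J array reached an SM/J array, with 6.56 as the highest in LG/J and 6.71 as the lowest in SM/J on the first probe. Of all tested probes 29.4% had no overlap between uninjured strains, and 48.7% had none between strains at day 7. Without LG/J uninjured replicate 4 the uninjured differences were -1.70 and -1.78. Without background correction they were -0.96 and -0.87 (limma adjusted p = 0.0106 and 0.00827).

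Krt6b had differences close to 0 between strains at day 7, at -0.04 ± 0.17 on ILMN_2594736 (limma adjusted p = 0.888, 95% interval -0.40 to 0.32) and -0.11 ± 0.21 on ILMN_1235713 (limma adjusted p = 0.745, 95% interval -0.57 to 0.35). Their sign turned with median scaling, to 0.16 and 0.25, and with 75th percentile scaling. In uninjured ear the Krt6b differences were -0.29 ± 0.17 (limma adjusted p = 0.255, 95% interval -0.65 to 0.08) on the brighter probe and -0.48 ± 0.21 (limma adjusted p = 0.127) on the dimmer one, whose uninjured LG/J arrays were all below the background limit. The dimmer probe was called without SM/J uninjured replicate 2, at -0.67 (limma adjusted p = 0.0396). At day 7 the intervals of the Krt6b differences, down to -0.57, and of the Krt6a differences, up to -0.96, did not meet. The difference between the genes was not itself tested.

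Krt16 differed by 0.22 ± 0.23 at day 7 (LG/J minus SM/J, limma adjusted p = 0.515, 95% interval -0.28 to 0.71) and by -0.49 ± 0.23 in uninjured ear (limma adjusted p = 0.146), with overlapping strains at both times. Without LG/J uninjured replicate 3 the uninjured difference was called, at -0.76 (limma adjusted p = 0.0335). Krt17 differed by 0.23 ± 0.15 at day 7 (limma adjusted p = 0.261, 95% interval -0.08 to 0.54), where each LG/J array, at 14.11 or more, was above each SM/J array, at 14.02 or less. Such a lack of overlap was found in 48.7% of tested probes. In uninjured ear Krt17 differed by 0.39 ± 0.15 (limma adjusted p = 0.0724, 95% interval 0.08 to 0.70), and this value passed the threshold without LG/J uninjured replicate 4, at 0.54 (limma adjusted p = 0.00503). LG/J uninjured replicate 4 was the lowest of its group for Krt17, at 13.95, and the highest for both Krt6a probes.

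The injury changes of the strains were then set against each other. For no wound keratin probe was the change in LG/J called different from the change in SM/J (0 of 6 by limma, 0.345% of all tested probes). The 95% intervals are not adjusted for the number of tested probes, and only that of Krt16 left out 0. The Krt16 change was 0.71 ± 0.32 larger in LG/J than in SM/J (limma adjusted p = 0.542, 95% interval 0.01 to 1.41). For Krt6a the difference of changes was -0.21 ± 0.42 (limma adjusted p = 0.962, 95% interval -1.12 to 0.69) and -0.24 ± 0.42 (limma adjusted p = 0.953, 95% interval -1.14 to 0.66), which turned to 0.10 and 0.09 without LG/J uninjured replicate 4. For Krt6b it was 0.25 ± 0.24 (limma adjusted p = 0.877, 95% interval -0.26 to 0.76) and 0.38 ± 0.30 (limma adjusted p = 0.834, 95% interval -0.28 to 1.03), and for Krt17 it was -0.16 ± 0.21 (limma adjusted p = 0.927, 95% interval -0.60 to 0.28). The Krt6a intervals reach -1.14, so the data do not show that the rises of the strains are equal.

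**Figure D3:**
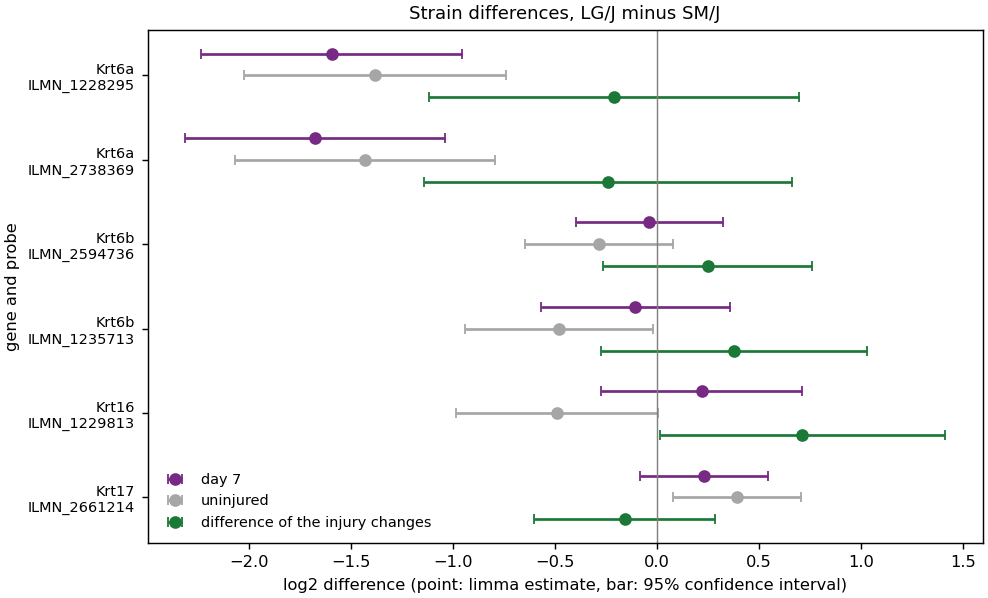
Strain differences of each wound keratin probe, LG/J minus SM/J on the log2 scale, at day 7 (purple), in uninjured ear (grey) and as the difference of the injury changes (green). Points are limma estimates and bars are 95% confidence intervals. Both Krt6a probes lie below 0 at both times, from -1.38 to -1.68, and every difference of changes but that of Krt16 spans 0.

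Within groups, some arrays were high or low on most of the 6 probes. LG/J day 7 replicate 1 was the highest of its group on 6 of 6 probes, with a mean deviation of 0.18 from the group mean. SM/J day 7 replicate 1 was likewise the highest on 6 of 6, with a mean deviation of 0.21. In uninjured SM/J, replicate 4 was the highest on 5 of 6 probes (mean deviation 0.36) and replicate 2 the lowest on 4 of 6 (-0.29). As means over the 14 genes, keratinocyte markers deviated by -0.06 to 0.04 on the day 7 and SM/J uninjured arrays, by 0.26 on LG/J uninjured replicate 4, and by -0.11 and -0.15 on LG/J uninjured replicates 1 and 3. On SM/J uninjured replicate 2, the low array for the keratins, the mean over skeletal muscle markers deviated by 0.83, over neutrophil markers by -0.26 and over fibroblast markers by -0.25, and its score on the first principal component was 36.2, against 69.1 and 68.6 for replicates 4 and 5. Their part in the keratin values was not tested.

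**Figure D4:**
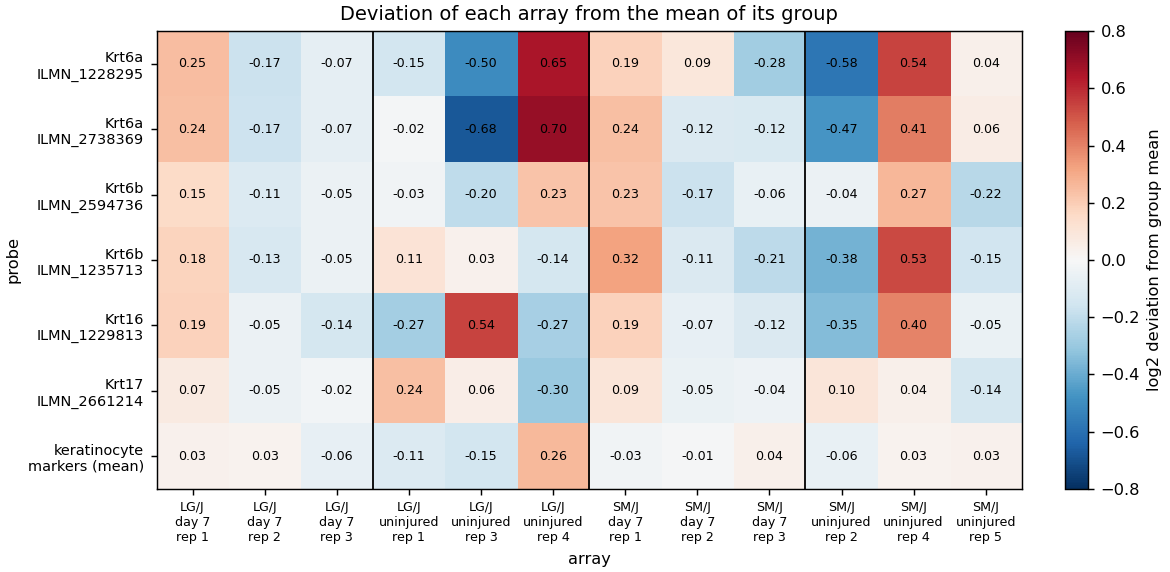
Deviation of each array (columns) from its group mean for the 6 wound keratin probes and for the mean of 14 keratinocyte markers (rows), in log2 units. Red is above and blue below the group mean. LG/J day 7 replicate 1 and SM/J day 7 replicate 1 are above their group mean on all 6 probes.

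Among the other keratins the picture was mixed. Of 18 tested epidermal and epithelial keratins, from a list of 22, 1 rose and 3 fell in LG/J (median change -0.16), and 1 rose and 5 fell in SM/J (median -0.33), where 7.43% of named genes were called higher and 5.92% lower in LG/J, and 7.1% higher and 6.29% lower in SM/J. The 1 that rose in both strains was Krt1, the type II chain of differentiating suprabasal cells. It rose by 3.17 ± 0.20 in LG/J (limma adjusted p = 4.48e-07, n = 3 per group) and by 1.90 ± 0.20 in SM/J (limma adjusted p = 5.46e-05). Krt1 had log2 values of 13.56, 13.55 and 13.17 in LG/J at day 7, against 9.99, 10.32 and 10.46 in uninjured LG/J, and 13.55, 13.94 and 14.11 in SM/J at day 7, against 11.61, 12.02 and 12.27 in uninjured SM/J. Uninjured LG/J thus had the lowest Krt1 levels, with a difference from uninjured SM/J of -1.71 (limma adjusted p = 9.26e-05), and the strains overlapped at day 7.

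Falls were seen for Krt15, a type I chain of basal cells and the hair follicle bulge, for Krt8, a type II chain of simple epithelia, and for the type I chain Krt24. Krt15 changed by -1.45 in LG/J (limma adjusted p = 1.51e-05) and by -0.96 in SM/J (limma adjusted p = 0.000462). Krt8 changed by -0.91 in LG/J and by -1.16 in SM/J, and Krt24 by -1.15 in LG/J and by -1.02 in SM/J. Krt77 at -0.83 and Krt79 at -0.67, both epidermal or follicular type II chains, were the further falls in SM/J. Without LG/J uninjured replicate 4 the list had 1 rise and 6 falls in LG/J and 1 rise and 8 falls in SM/J (medians -0.38 and -0.32), and Krt1, Krt8, Krt15 and Krt24 stayed called in both strains. Krt5, Krt14 and Krt42, each next to a wound keratin on the chromosome, were not called. Krt5, next to Krt6a and the type II chain of basal cells, had differences at 0.22 in LG/J and 0.12 in SM/J (limma adjusted p = 0.45 and 0.714). Krt14, next to Krt16 and the type I partner of Krt5, had differences of 0.01 and 0.10 (limma adjusted p = 0.964 and 0.687), and Krt42, next to Krt17, had -0.24 and -0.06 (limma adjusted p = 0.465 and 0.895). None of the 7 tested hair follicle sheath keratins, from a list of 9, was called in either strain, and their median change was 0.12 in LG/J (-0.22 without LG/J uninjured replicate 4) and -0.20 in SM/J. The lowest p among them belonged to Krt26, at -0.10 in LG/J and 0.39 in SM/J (limma adjusted p = 0.166 in SM/J). Krt26 was at or near the background limit on all arrays, with log2 values of 5.51 to 6.49.

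**Figure D5:**
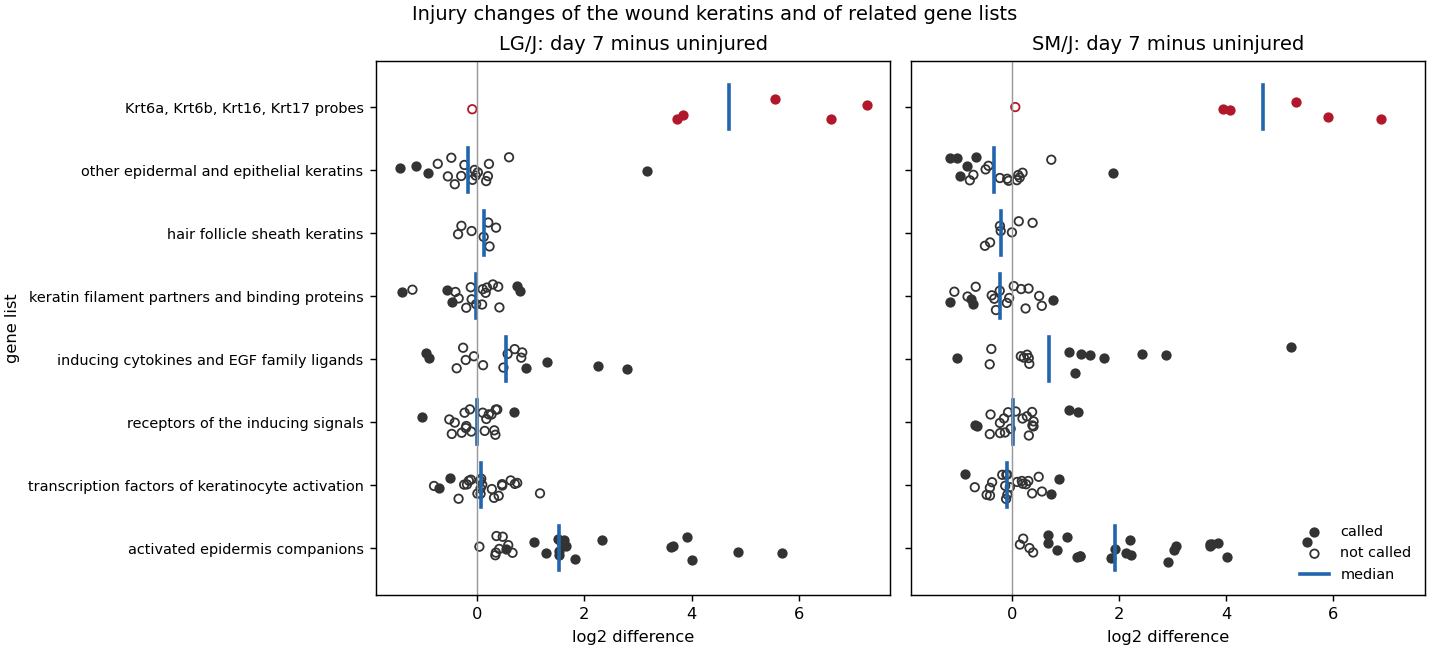
Injury changes, day 7 minus uninjured on the log2 scale, in LG/J (left) and SM/J (right) for the 6 wound keratin probes (red) and for related gene lists (black, 1 probe per gene). Filled points were called by limma, open points were not, and blue lines are medians. The median of the wound keratins is 4.70 in LG/J and 4.69 in SM/J, and the activated epidermis companions have 1.52 and 1.93.

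Cytokines and growth factors that induce wound keratins in cultured keratinocytes or psoriatic skin were read from the same arrays. Of 16 tested cytokines and EGF family ligands, from a list of 24, 4 rose and 2 fell in LG/J (median 0.53), and 8 rose and 1 fell in SM/J (median 0.70), beside 7.43% of named genes higher and 5.92% lower in LG/J, and 7.1% and 6.29% in SM/J. Without LG/J uninjured replicate 4 there were 4 rises and 1 fall in LG/J, with a median of 0.34. Il1b, an inflammatory cytokine of myeloid cells and keratinocytes, rose by 2.80 ± 0.43 in LG/J (limma adjusted p = 0.00143) and by 5.21 ± 0.43 in SM/J (limma adjusted p = 5.16e-06). Il19, a cytokine of the IL-20 family, rose by 2.25 in LG/J and 2.43 in SM/J, and oncostatin M (Osm) rose by 1.30 in LG/J (limma adjusted p = 0.00455) and by 2.88 in SM/J (limma adjusted p = 5.35e-06). All uninjured Il19 arrays, at 4.83 to 5.55, were below the background limit, so the sizes of its rises are uncertain. Uninjured LG/J was also at or near the limit for Il1b, at 5.62 to 6.10, and for Osm, at 5.67 to 6.23. Il24, a relative of Il19, rose by 1.72 in SM/J (limma adjusted p = 0.000624) and had a change of 0.82 in LG/J (limma adjusted p = 0.0537). At day 7 these ligands differed between strains in 7 of 16 genes, all lower in LG/J, where 11.4% of named genes were called lower. At day 7 the Il1b difference, LG/J minus SM/J, was -3.35 (limma adjusted p = 0.000167) and the Osm difference -1.52 (limma adjusted p = 0.000812), while the changes themselves were not called different between strains for any gene of this list. Leaving out LG/J uninjured replicate 4, the difference of changes was called for Osm, at -1.77 (limma adjusted p = 0.0454).

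Of 20 receptors of these signals 1 rose and 1 fell in LG/J, and 2 rose and 2 fell in SM/J, shares to be read against the same 7.43% higher and 5.92% lower of named genes in LG/J, and 7.1% and 6.29% in SM/J. The oncostatin M receptor gene Osmr rose by 0.69 in LG/J and 1.07 in SM/J, and Fgfr2, a receptor of FGF7, fell, at -1.03 in LG/J and -0.65 in SM/J. The interferon gamma receptor gene Ifngr2 rose by 1.24 in SM/J and was at -0.52 in LG/J (limma adjusted p = 0.0258 and 0.358), and Erbb2, an EGF family receptor, fell at -0.68 in SM/J and was at -0.23 in LG/J (limma adjusted p = 0.0181 and 0.423). Of 23 tested transcription factors, from a list of 27, none rose and 2 fell in LG/J, and 2 rose and 1 fell in SM/J. Gli2, an effector of hedgehog signalling, fell, at -0.50 in LG/J and -0.88 in SM/J. Trp63, the master factor of the epidermal lineage, fell by 0.71 in LG/J (limma adjusted p = 0.0225) and had a difference of -0.18 in SM/J (limma adjusted p = 0.615). In SM/J the factors that rose were Junb, an AP-1 subunit, by 0.88 (limma adjusted p = 0.0193), and Nfkbiz, a cofactor of NF-kB, by 0.74 (limma adjusted p = 0.0198), with changes of 0.63 and 0.08 in LG/J that were not called. Without LG/J uninjured replicate 4, receptors had 1 rise and 3 falls in LG/J and 3 rises and 2 falls in SM/J, and transcription factors 4 rises and 1 fall in SM/J.

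Proteins that anchor or bind keratin filaments gave 2 rises and 3 falls among 19 tested genes in LG/J, where 7.43% of named genes were called higher and 5.92% lower, and 1 rise and 3 falls in SM/J, where the shares were 7.1% and 6.29%. Sfn (14-3-3 sigma), which binds keratins including Krt17, rose by 0.81 in LG/J (limma adjusted p = 0.00139) and 0.78 in SM/J (limma adjusted p = 0.00144). Dst, a linker of filaments to hemidesmosomes, fell, at -1.40 in LG/J and -1.15 in SM/J. Periplakin (Ppl), a linker at desmosomes and the cornified envelope, fell, at -0.56 in LG/J and -0.76 in SM/J. Myh9, a nonmuscle myosin heavy chain that binds Krt6 chains, rose by 0.75 in LG/J (limma adjusted p = 0.0092) and was at 0.51 in SM/J (limma adjusted p = 0.0558). Col17a1, a hemidesmosome collagen among the keratinocyte markers, fell at -0.67 in LG/J (limma adjusted p = 0.0031) and was at -0.32 in SM/J (limma adjusted p = 0.106). Leaving out LG/J uninjured replicate 4, the filament list had 2 rises and 1 fall in LG/J, where Ppl was no longer called (-0.45, limma adjusted p = 0.108) and Dst was at -0.89, and 3 rises and 5 falls in SM/J.

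Other genes listed for activated epidermis rose in greater number. The samples were whole ear, so which cells made these RNAs was not tested. Of 25 tested companions, from a list of 30, 17 rose and none fell in LG/J (median 1.52), and 21 rose and none fell in SM/J (median 1.93). Of all named genes, 7.43% were called higher in LG/J and 7.1% in SM/J. The list was chosen with earlier results of these data known. Sprr1b, a cornified envelope precursor, rose by 5.69 in LG/J and 3.74 in SM/J, and Mmp13, a collagenase, by 3.65 in LG/J and 4.02 in SM/J. Uninjured Mmp13 values ran from 5.73 to 7.10 in LG/J and from 5.95 to 6.36 in SM/J, the lowest of them at the background limit. S100a8, a calprotectin subunit made by neutrophils and by injured epidermis, rose by 4.87 in LG/J and by 3.85 in SM/J, and S100a9, the other subunit, by 3.92 in LG/J and by 5.50 in SM/J. The change was called different between strains for 1 of the 25, the S100 family gene S100a7a, at -1.52 ± 0.29 (LG/J change minus SM/J change, limma adjusted p = 0.0485), where 0.253% of named genes had a change called lower in LG/J. Leaving out LG/J uninjured replicate 4 ended this call (-1.57, limma adjusted p = 0.0513), and the companions again had 17 rises in LG/J and 21 in SM/J.

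The named genes most like each wound keratin were found by the root mean square difference of centred log2 values over the 12 arrays, among 14214 genes. For Krt6b (brighter probe) these were the antimicrobial lectin gene Reg3g at 0.25 and the late cornified envelope genes Lce3f at 0.30 and Lce3e at 0.35. For Krt16 the nearest was Cstdc5, a stefin A relative, at 0.26, followed by Reg3g at 0.63 and Lce3f at 0.68. The Krt6b probes, outside this search, were nearer to Krt16 than Reg3g was, at 0.52 (brighter probe) and 0.48 (dimmer probe). For Krt6a (brighter probe) no gene came within 0.5, and the nearest were Sprr2e at 0.54, S100a8 at 0.54 and Sprr2h at 0.58. For Krt17, which varied little (SD 0.22 over the arrays), 11335 genes lay within 0.5, so that likeness to Krt17 singles out nothing.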

How the data were processed

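Ear RNA of 12 arrays was analysed. The deposited values are average bead signal intensities per probe, which the authors made with BeadStudio, per the submitters' processing notes (no version is given). They showed no normalization between arrays, and no detection p-values or control probes were used here. A deposited table of 28845 probes, already normalized by the authors, served as an alternative.

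Background was estimated from the signals (normexp, offset 16), followed by log2 and quantile normalization between arrays. A filter on mean level took out the dimmest 25%, and 33960 probes stayed. The fit used limma 3.58.1 in R 4.3.3, with 1 mean per group over all 12 arrays, 5 contrasts and Benjamini-Hochberg adjustment over all tested probes (threshold 0.05). The fit was tested on simulated data. Errors of changes are standard errors, intervals are 95%, and the number of arrays limits the precision. The background limit of an array was set at the 95% point of a normal curve fitted about its signal mode. Fold bounds use that limit.

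Gene names came from the platform annotation: 23604 probes had 1 name, 12 several and 21665 none. All wound keratin probes were named. From each of 8 related lists (175 entries, 142 tested, 1 probe per gene) up to 4 called genes with the largest injury change were named, or the lowest p where none was called. Krt5, Krt14, Krt42, Krt77, Krt79 and S100a7a were named after their values were seen. The keratinocyte marker list is itself 1 of the 8. Lists overlap, so that some genes are entered more than once: Krt5, Krt14, Krt15, Trp63, Sfn and Dsc3 are also keratinocyte markers. The members and lists were chosen with earlier results of these data known.

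Alternatives covered background correction, scaling, filter, probe choice, the authors' table, an intensity trend, array weights, a replicate block and leaving out each array.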

Additional observations from a re-analysis of the deposited data

How the results depend on the processing

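The rises of Krt6a, Krt6b and Krt16 in both strains, and the lower Krt6a of LG/J in uninjured and day 7 ear, kept their direction and their side of the threshold in all alternatives run. Of 710 probe values under alternatives, 675 kept direction and call, 11 became called and 24 turned sign, all 24 of values that were not called. With 1 probe per gene the calls were 3 of 4 genes in each injury comparison and 1 of 4 in each strain comparison, by construction. With array weights 5 of 6 probes were called in uninjured ear, Krt17 among them at 0.52 (limma adjusted p = 0.00144). Krt17 in uninjured ear was also called without background correction (limma adjusted p = 0.0415), with offset 50 (0.0435), in the authors' table (0.0401), with an intensity trend (0.0309) and without 2 uninjured arrays, replicate 4 of LG/J and replicate 2 of SM/J (0.00372). The cause of these shifts and of the sign turns below was not tested.

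The Krt17 change in LG/J was 0.17 with 75th percentile scaling, and ran from -0.24 to 0.032 on leaving out 1 array. In SM/J it was 0.29 with 75th percentile scaling, and ran from -0.0029 to 0.12 on leaving out 1 array. The difference of changes on the Krt6a probes was 0.14 and 0.064 with median scaling, 0.11 and 0.035 with 75th percentile scaling, 0.37 and 0.42 with array weights, and 0.38 and 0.32 without these 2 arrays. At the other end it was -0.59 on the first probe without background correction, and -0.74 on the other in the authors' table. On leaving out 1 array it ran from -0.50 to 0.10 on the first probe and from -0.57 to 0.094 on the other. The Krt6b strain difference at day 7 was 0.16 and 0.25 with median scaling, 0.17 and 0.26 with 75th percentile scaling, and 0.047 on the brighter probe with array weights. On leaving out 1 array it ran from -0.12 to 0.074 on the brighter probe and from -0.21 to 0.056 on the dimmer one. Scaling to the 75th percentile moved the median change of all probes to 0.13 in LG/J, 0.15 in SM/J and 0.11 between uninjured strains.

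Counts over all probes were less stable. Of 33960 probes, 3071 were called in LG/J, 3188 in SM/J, 117 in the difference of changes, 7326 in uninjured ear and 8541 at day 7, in that order. Array weights gave 6002, 8355, 1623, 15479 and 13299. Leaving out 1 array gave 1512 to 3390, 1673 to 5971, 15 to 496, 3465 to 12048 and 4805 to 11856. The difference of changes had 71 calls with median and 63 with 75th percentile scaling. Without these 2 arrays the last 4 counts were 7610, 2346, 13261 and 13173.

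The labels do not say whether replicate numbers pair samples. Over 10 same-numbered pairs, correlations of deviations ran from -0.088 to 0.26. Few of these pairs joined day 7 and uninjured arrays of the same strain, so the correlations cannot decide it. With the replicate number as a block, 5 of 6 probes were called in each injury comparison, 0 in the difference of changes and 2 in each strain comparison, and over all probes 1582 in SM/J, 14 in the difference of changes and 3794 in uninjured ear. The Krt17 change in SM/J was -0.19 and its difference of changes 0.032 with the block.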
